A study of Mus musculus with 8 samples.

Results

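Small nucleolar RNAs (snoRNAs) were examined in 8 polyA RNA libraries, made from the nucleus and the cytoplasm of mouse liver and of MIN6, a mouse insulinoma cell line that serves as a model of the pancreatic beta cell. The genes were chosen by their symbol, beginning with Snora, Snord or Scarna, and by their measured value, above 0 in at least 1 library. Of 26520 rows, 64 carried such a symbol, and 26 of them were above 0 somewhere, 13 of 22 Snora rows and 13 of 40 Snord rows. Both Scarna rows, Scarna3a and Scarna6, were listed at 0 in every library, so the genes described here are snoRNA genes, with no Cajal body RNA among them. The share above 0 was 40.6% of the named rows and 61.1% of all rows. All 26 are annotated as snoRNA genes in GENCODE M21 on GRCm38, which is mm10, the build named in the submitters' processing notes.

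SnoRNAs are short, stable RNAs that guide the modification of ribosomal and spliceosomal RNA in the nucleolus. Box C/D snoRNAs, named Snord in the mouse, hold a C box and a D box near their ends and guide methylation of the ribose. Box H/ACA snoRNAs, named Snora, fold into a pair of hairpins, end a few bases after the letters ACA and guide the change of uridine to pseudouridine. A few, such as Snord118 (U8), Snord22 (U22), the Snord14 genes (U14) and U3, take part in cleavage of the ribosomal precursor, a role worked out in yeast, frog and human cells. Most vertebrate snoRNAs are cut from introns of host genes and end without a polyA tail, so a polyA library is not designed to capture the mature form.

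The 8 libraries formed 4 groups of 2 replicates: MIN6 nuclear, MIN6 cytoplasmic, liver nuclear and liver cytoplasmic. For MIN6, nuclei were spun through a sucrose layer after lysis with a mild detergent, and the cytoplasmic fraction was the supernatant of that lysis. For liver, the nuclear RNA was the soluble part left once chromatin had been taken out of the nuclei, so tissue and fractionation protocol cannot be told apart. The labels give no treatment, age or sex, no strain for MIN6, and for liver the strain entries C57BL/6, C57BL/7, C57BL/8 and C57BL/9 in turn. Fractions follow the sample titles; for MIN6 the source field names the opposite fraction. Neat1, a nuclear long noncoding RNA, was higher in every library titled nuclear, at 22.5 and 28.6 FPKM against 3.05 and 2.68 FPKM for MIN6 and at 59.1 and 48.0 against 4.07 and 2.97 FPKM for liver. Ins2 (insulin) ran from 763 to 8166 FPKM in MIN6 and was listed at 0 in liver, while Alb (albumin) ran from 649 to 41591 FPKM in liver and was listed at 0 in MIN6. Nothing says that replicates came from separate animals or cultures, so p-values measure the spread between these libraries, which may be technical.

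The sequences of 10 genes are shown, because the values below rest mainly on them: the box C/D genes with the most reads, the related pair Snord14c and Snord14e, Snord72, and 4 box H/ACA genes. They are GENCODE M21 transcripts on the plus strand of GRCm38, written 5′ to 3′. Capitals mark the C box (ATGATGA or GTGATGA) and the last D box (CTGA) in box C/D genes, and the ACA 3 bases from the end in box H/ACA genes.
Snord104: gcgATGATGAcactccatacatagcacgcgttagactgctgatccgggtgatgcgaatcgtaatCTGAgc
Snord118: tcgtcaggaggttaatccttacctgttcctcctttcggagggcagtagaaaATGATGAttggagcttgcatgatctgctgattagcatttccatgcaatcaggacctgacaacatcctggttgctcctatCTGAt
Snord96a: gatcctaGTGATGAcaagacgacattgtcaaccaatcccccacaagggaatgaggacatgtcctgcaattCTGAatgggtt
Snord14e: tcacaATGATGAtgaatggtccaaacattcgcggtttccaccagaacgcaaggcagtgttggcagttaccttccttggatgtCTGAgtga
Snord14c: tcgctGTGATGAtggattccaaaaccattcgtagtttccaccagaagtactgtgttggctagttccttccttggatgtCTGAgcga
Snord72: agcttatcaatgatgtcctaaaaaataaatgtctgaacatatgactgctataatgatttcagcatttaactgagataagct
Snora31: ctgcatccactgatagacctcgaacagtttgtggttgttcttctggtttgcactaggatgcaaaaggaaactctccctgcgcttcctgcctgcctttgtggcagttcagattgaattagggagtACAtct
Snora64: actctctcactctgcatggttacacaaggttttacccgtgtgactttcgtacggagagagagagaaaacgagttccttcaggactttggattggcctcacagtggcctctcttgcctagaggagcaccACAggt
Snora65: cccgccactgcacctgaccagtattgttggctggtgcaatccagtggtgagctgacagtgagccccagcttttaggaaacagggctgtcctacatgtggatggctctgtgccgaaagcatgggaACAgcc
Snora70: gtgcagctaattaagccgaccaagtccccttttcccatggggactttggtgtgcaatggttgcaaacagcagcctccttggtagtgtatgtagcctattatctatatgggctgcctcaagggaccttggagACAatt

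Snord104 lies at chr11:106500993-106501062, Snord118 at chr11:69073427-69073561 and Snord96a at chr11:48802032-48802112. Snord14e lies at chr9:40804748-40804837, Snord14c at chr9:40803583-40803668 and Snord72 at chr15:5118404-5118484. Among the box H/ACA genes shown, Snora31 lies at chr14:75847905-75848034, Snora64 at chr17:24720772-24720905, Snora65 at chr2:32963291-32963420 and Snora70 at chrX:74272484-74272620. An exact C box with a D box after it was found on the transcript strand in 7 of 13 Snord genes above 0 (53.8%) and in 15 of 27 Snord rows at 0. Snord72 held no such pair with these letters and is printed without capitals. The ACA stood 3 bases from the end in 10 of 13 Snora genes above 0 (76.9%) and in 7 of 9 Snora rows at 0. Among 1682 miRNA and snRNA rows with 1 transcript under 200 bases, 0.0595% held the C and D pair and 1.66% the ACA. The shares in rows above 0 and in rows at 0 lay close together. Over the 325 pairs of the 26 genes, the most alike were Snord14c and Snord14e, with 74 identical bases over 93 aligned positions (79.6%), and the next pair, Snord104 and Snord95, reached 58.2%.

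Lengths followed the class. The Snord genes above 0 ran from 68 to 135 bases with a median of 86, and the Snora genes from 121 to 196 with a median of 132. The 27 Snord rows at 0 had a median length of 76 bases, and the 9 Snora rows at 0 one of 132.

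These lengths decide what an FPKM value stands for. FPKM relates the fragments of a gene to its length in kilobases and to the depth of the library. Cuffdiff, named in the submitters' processing notes, uses an effective length, which becomes very small for a gene as short as a library fragment. Values of short genes fell on steps, so the FPKM worth of 1 read could be worked out for each library and length: of 224 values of short single-transcript genes, 202 were whole numbers of reads within 0.03. This rests on an assumed fragment length of 200 ± 80 bases, so reads are called estimated. A single read on a gene of 70 bases was worth 51.3 times the FPKM of a read on a gene of 130 bases, and 19330 times that of a read on a gene of 2000 bases. In MIN6 nuclear replicate 1, a read was worth 513 FPKM at 70 bases and 10.0 FPKM at 130 bases. In liver nuclear replicate 1 the same lengths gave 2551 and 49.7 FPKM, and in liver cytoplasmic replicate 1 they gave 23821 and 464 FPKM.

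**Figure D1:**
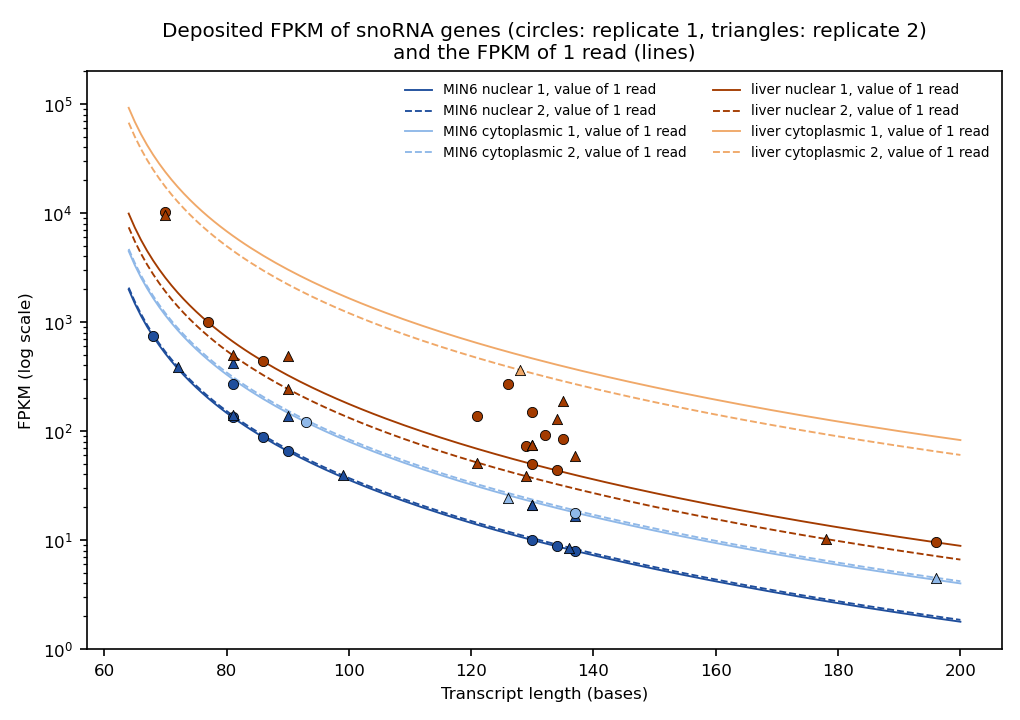
Deposited FPKM (log scale) of the snoRNA genes against transcript length in bases; circles are replicate 1 and triangles replicate 2, coloured by group, and each line is the FPKM that 1 estimated read has in that library. Points on the line of their own library rest on 1 read; no point lies above the liver cytoplasmic lines, and Snord22 in MIN6 nuclear replicate 2 (0.00784 FPKM) is off the axis.

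Of the 208 values of the 26 genes, 47 were above 0. Whole reads lay behind 43 of them: 25 values stood for 1 read, 12 for 2, 2 for 3, 2 for 4, 1 for 5 and 1 for 6. The FPKM at 1 read ran from 4.51 (Snora74a, MIN6 cytoplasmic replicate 2) to 995 (Snord47, liver nuclear replicate 1), a 220-fold range for the same evidence. A further 4 values were not whole, 3 of them in Snord22 and 1 in Snora44. Both are among the 18 genes that lie under exons of longer host transcripts. Whether that position bears on the values that were not whole was not tested. No gene was above 0 in more than 3 libraries: 12 genes were seen in 1 library, 7 in 2 and 7 in 3. Of the 26, 11 genes rested on 1 read in all.

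**Figure D2:**
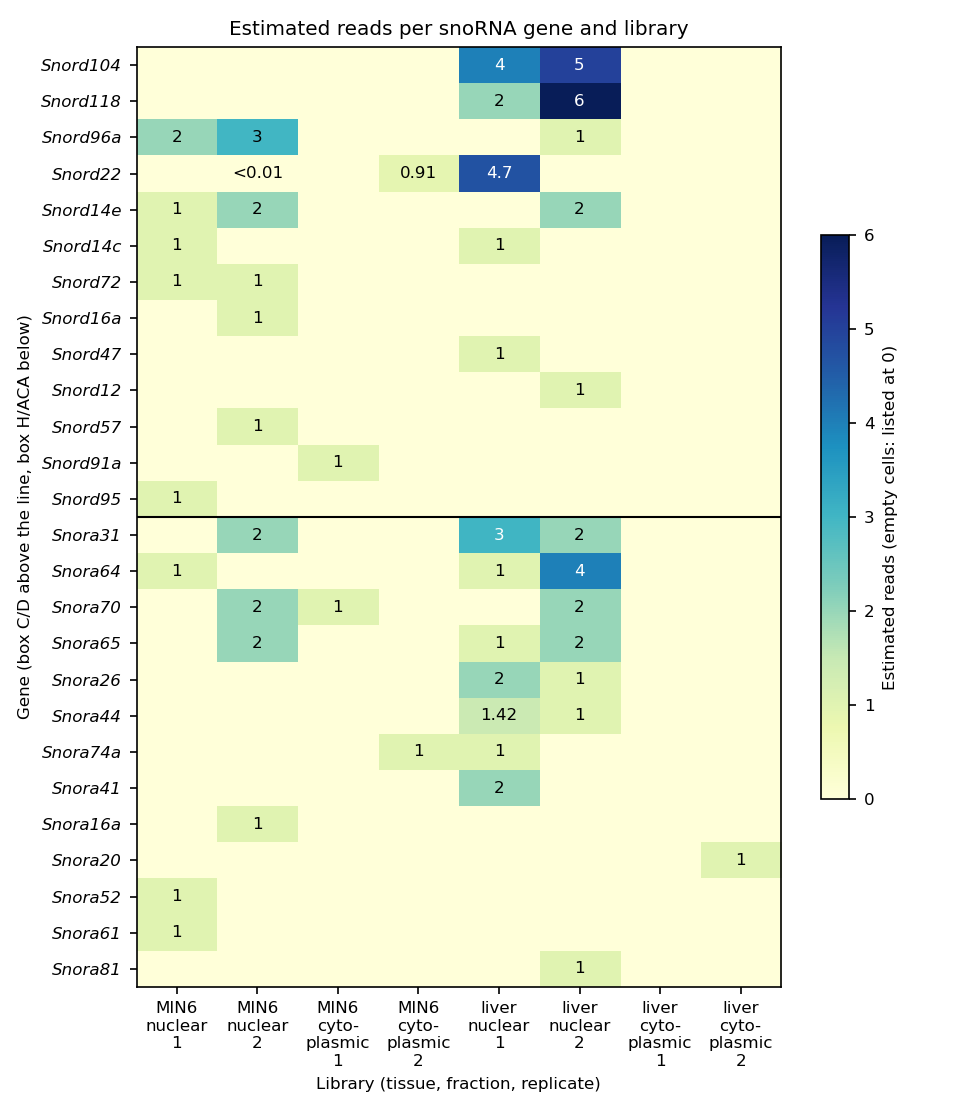
Estimated reads of each of the 26 snoRNA genes (rows) in each of the 8 libraries (columns, by tissue, fraction and replicate); colour and number give the reads, and empty cells are listed at 0. Entries fill the nuclear columns, with at most 2 genes in any cytoplasmic column, and the highest entry is 6 reads, for Snord118 in liver nuclear replicate 2.

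SnoRNA reads were found mostly in nuclear libraries. In MIN6 the summed reads of the 26 genes were 9 and 15 for the nuclear replicates against 2 and 1.91 for the cytoplasmic ones. Liver gave 24.1 and 28 reads for the nuclear replicates against 0 and 1 for the cytoplasmic ones. These sums did not overlap between nuclear and cytoplasmic libraries in either tissue. Exact 95% Poisson intervals, which cover counting error only, ran from 4.12 to 17.1 for 9 reads, from 8.40 to 24.7 for 15, from 15.4 to 35.7 for 24 and from 18.6 to 40.5 for 28. The cytoplasmic intervals reached 7.22 reads at most in MIN6 and 5.57 in liver, so in MIN6 they overlapped the interval of the 9 nuclear reads. Scaled to 1000000 estimated reads of the library, the MIN6 sums were 4.19 and 10.98 nuclear reads against 1.62 and 1.56 cytoplasmic reads, and the liver sums 17.0 and 22.1 against 0 and 0.958. With the mean in place of the longest transcript length of each gene for the depth, these became 9.69 and 24.9 against 3.48 and 3.35 in MIN6 and 34.5 and 44.4 against 0 and 1.81 in liver. The estimated depth ran from 1.04 to 2.15 times 1000000 reads. Both liver nuclear libraries were above both MIN6 nuclear libraries, by counts that differ in protocol as well as tissue.

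**Figure D3:**
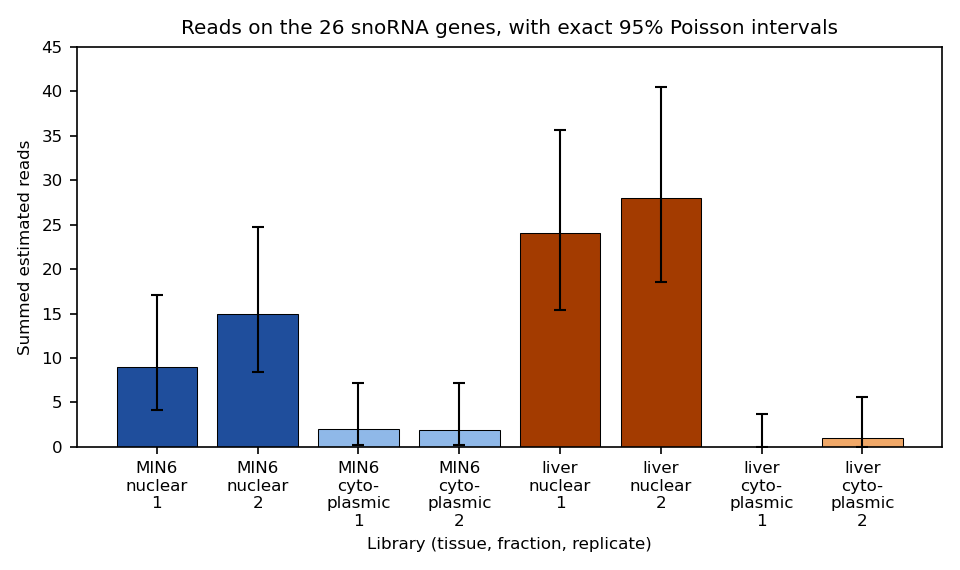
Summed estimated reads on the 26 snoRNA genes in each library (bars, from 0) with exact 95% Poisson intervals of the count rounded to whole reads. The liver nuclear libraries hold 24.1 and 28 reads, the MIN6 nuclear libraries 9 and 15, and no cytoplasmic library more than 2.

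Of the 81 reads, 76 came from nuclear libraries, which is 93.9% (exact 95% binomial interval 86.2 to 98.0%, which pools the libraries and covers counting error only), beside 57.4% of the estimated reads of all genes. Other short classes were also mostly nuclear. The nuclear share was 84.2% for the other annotated snoRNA and scaRNA rows, of which 35 of 614 were above 0, 76.2% for miRNA rows (53 of 1006 above 0) and 95.2% for snRNA rows (13 of 676). Protein-coding genes had 54.4% of their reads in nuclear libraries. The high nuclear share was therefore not particular to the named snoRNA genes among short RNA classes. Of the 26 genes, 21 were above 0 only in nuclear libraries, 2 only in cytoplasmic ones (Snora20 and Snord91a, at 1 read each) and 3 in both (Snora70, Snord22 and Snora74a).

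By summed FPKM the same genes looked far more abundant. For MIN6 their share of the FPKM of all genes was 3.72% and 3.34% in nuclear replicates against 0.230% and 0.0459% in cytoplasmic ones, and for liver it was 7.10% and 10.9% against 0 and 0.0423%. Snord104 ranked 1st of all genes by FPKM in both liver nuclear libraries, on 4 and 5 reads. Snord95 ranked 2nd in MIN6 nuclear replicate 1 on 1 read, and Snord96a 10th in MIN6 nuclear replicate 2 on 3 reads.

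In the MIN6 comparison of fractions, 17 of the 26 genes passed the filter of a mean of 1 FPKM, and limma on log2(FPKM + 1) called 3 of them higher in nuclear libraries at an adjusted p under 0.05 and 0 higher in cytoplasmic ones (also 0 at an unadjusted p under 0.05). Among all 6017 genes tested, 11.8% were called higher in nuclear and 46.1% higher in cytoplasmic libraries. The 3 genes were those above 0 in both nuclear libraries and in neither cytoplasmic library. A gene that passed the filter through nuclear values alone had to be higher there, so these counts describe the rows and support nothing further.

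Snord96a, a box C/D snoRNA inside the ribosomal scaffold gene Rack1, reached 268 and 418 FPKM in MIN6 nuclei and was listed at 0 in the MIN6 cytoplasm. Both nuclear values, on 2 and 3 reads, thus lay above both cytoplasmic ones, with a log2 ratio of 8.39 ± 0.30 (SE) and a limma adjusted p of 0.00104. Snord72, inside the ribosomal protein gene Rpl37, was at 134 and 139 FPKM in the nuclear libraries, 1 read each, and at 0 in the cytoplasmic ones (log2 ratio 7.10 ± 0.23, limma adjusted p 0.00104). A read of Snord72 had nearly the same FPKM worth in both nuclear libraries, 134 and 139. Snord14e, 1 of the U14 genes inside the heat shock gene Hspa8, was at 65.6 and 136 FPKM, on 1 and 2 reads, and at 0 in the cytoplasmic libraries (log2 ratio 6.58 ± 0.40, limma adjusted p 0.00144).

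Each log2 ratio compares a level with a listed 0 whose own resolution is coarse. A single read on an 81-base gene such as Snord72 would have been 301 and 315 FPKM in the MIN6 cytoplasmic libraries, above both nuclear values of Snord72. For Snord14e a single cytoplasmic read would have been 147 and 154 FPKM, again above both nuclear values. For Snord96a it would have been above the first nuclear value and below the second. With 3 cytoplasmic reads as the limit that a count of 0 allows, no fold bound above 1 could be given for these genes.

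No other gene was above 0 in both libraries of a MIN6 fraction. In nuclear replicate 1 these were Snord95 at 739 FPKM, Snord14c at 87.7, Snora61 at 10.0, Snora64 at 8.76 and Snora52 at 7.96, 1 read each. In nuclear replicate 2, Snord57 at 391 FPKM, Snord16a at 39.2 and Snora16a at 8.55 rested on 1 read each, and Snora31 at 20.8, Snora65 at 20.8 and Snora70 at 16.6 on 2 reads each. In the cytoplasmic libraries, replicate 1 held Snord91a at 121 FPKM and Snora70 at 17.9, and replicate 2 held Snord22 at 24.5 and Snora74a at 4.51. Snora70, inside Rpl10, was the 1 gene of these with a nuclear and a cytoplasmic value in MIN6 that were each at least 1 read, and its log2 ratio of −0.05 ± 1.82 (limma adjusted p 0.982) leaves both directions possible.

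In liver, 18 of the 26 genes passed the filter, and limma called 7 higher in nuclear libraries and 0 higher in cytoplasmic ones (also 0 at an unadjusted p under 0.05). Among all 10353 genes tested, 2.93% were called higher in nuclear and 50.2% in cytoplasmic libraries, on the authors' scaling. The 7 genes were again those above 0 in both nuclear libraries with both cytoplasmic libraries at 0, and all had a limma adjusted p of 0.00346. Leaving out either liver nuclear library ended all 7 calls, with limma adjusted p of 0.0889 without replicate 1 and 0.113 without replicate 2. The log2 ratios were then 13.22 and 13.32 for Snord104 and 7.04 and 5.48 for Snora64. With both cytoplasmic libraries at 0, each was set by the level in the nuclear library that remained and supports nothing further. In those fits limma called 0 of 10382 and 0 of 10465 genes in either direction, although 169 and 233 genes were higher in nuclear and 4014 and 3346 in cytoplasmic libraries at an unadjusted p under 0.05.

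Snord104, a box C/D snoRNA with no longer gene around it on its strand in GENCODE M21 and the gene Gm36220 over it in RefSeq, was at 10202 and 9540 FPKM in the liver nuclear libraries and at 0 in the other 6. Its 4 and 5 reads made it the gene with the most reads of the 26, and its log2 ratio over the cytoplasmic libraries was 13.27 ± 0.41. A single read would have been 23821 and 17404 FPKM in the liver cytoplasmic libraries, above both nuclear values. Snord118 (U8), which is needed to mature the RNAs of the large ribosomal subunit in frog and human cells, likewise had no longer gene around it. It was at 84.3 and 189 FPKM in the liver nuclear libraries, on 2 and 6 reads, and at 0 elsewhere (log2 ratio 6.99 ± 0.55).

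The other 5 liver calls were box H/ACA genes. Snora31, in an intron of Tpt1, was at 149 and 74.4 FPKM in liver nuclear libraries (3 and 2 reads), with a log2 ratio of 6.73 ± 0.52. Snora26, within the long noncoding gene Dancr, was at 138 and 51.4 FPKM (2 and 1 reads), with a log2 ratio of 6.41. Snora64, within Rps2, was at 43.5 and 130 FPKM (1 and 4 reads), with a log2 ratio of 6.26. Snora65, within Rpl12, was at 49.7 and 74.4 FPKM (1 and 2 reads), with a log2 ratio of 5.95. Snora44, within the host gene Snhg12, was at 73.1 and 38.5 FPKM (1.42 and 1 reads), with a log2 ratio of 5.76. All 5 were listed at 0 in both liver cytoplasmic libraries. Over the 10 calls in MIN6 and liver, 1 cytoplasmic read would have exceeded both nuclear values in 9, the exception being Snord96a in MIN6, and 3 cytoplasmic reads would have exceeded them in all 10.

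Values in a single liver nuclear library made up the rest. Replicate 1 held Snord47 at 995 FPKM, Snord14c at 436 and Snora74a at 9.53, 1 read each, Snora41 at 93.0 on 2 reads and Snord22 at 268 on an estimated 4.70 reads. Replicate 2 held Snord96a at 497 FPKM, Snord12 at 244 and Snora81 at 10.2, 1 read each, and Snord14e at 487 and Snora70 at 59.2, 2 reads each. The 1 liver cytoplasmic value of the 26 genes was Snora20 at 363 FPKM in replicate 2, a single read. Replicates thus shared 7 of the 17 genes seen in liver nuclear libraries and 3 of the 15 seen in MIN6 nuclear libraries.

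Between tissues, 8 genes were above 0 in nuclear libraries of both, 9 in liver nuclear only and 7 in MIN6 nuclear only. Nuclear replicates of the same tissue shared only 7 of 17 genes in liver and 3 of 15 in MIN6. At so few reads per gene, a 0 in 1 tissue does not show a lower level there. The same overlap over all genes is not given here. In the limma comparison of nuclear libraries, 24 of the 26 were tested, 5 were called higher in liver (Snord104, Snord118, Snora26, Snora44 and Snora64) and 1 higher in MIN6 (Snord72). Of all 7460 genes tested, 52.4% were called higher in liver and 4.91% higher in MIN6. Without MIN6 nuclear replicate 2, limma called 2 of the 26 genes higher in liver, Snord104 being the 1 of the 5 that kept its call, and the share over all genes fell to 2.56%. The ratios of Snora44, Snord118 and Snora26 (5.76, 6.99 and 6.41) could not change in that fit. These genes were listed at 0 in both MIN6 nuclear libraries, so the unchanged ratios show no stability. Snora64 lost its call in 7 of 11 alternatives, with a limma adjusted p of up to 0.311. The comparison shares its nuclear libraries with the 2 comparisons of fractions, so it is no separate evidence. The interaction term, the nuclear to cytoplasmic log2 ratio in liver minus that in MIN6, was tested for 25 of the 26. It called the same 5 as higher in liver and Snord72 as higher in MIN6, against 2.55% and 34.9% of the 9876 genes tested. Relative to MIN6 nuclear replicate 1, a read was worth 1.04 times as many FPKM in MIN6 nuclear replicate 2, and 4.97 and 3.72 times as many in the liver nuclear libraries, so levels of the 2 tissues are not on 1 scale.

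Estimated reads per 1000000 in place of FPKM, a scale chosen after the data were seen, removed the length inflation. With the same filter of a mean of 1, it left 0 of the 26 genes to test in the MIN6 comparison, 2 in liver and 4 between nuclear libraries. These genes passed through nuclear libraries, so their direction was given by the filter. Snord104 was the 1 then called, higher in liver nuclear than in liver cytoplasmic libraries (log2 ratio 2.12, limma adjusted p 0.0328) and higher in liver than in MIN6 nuclear libraries (2.12, limma adjusted p 0.0204), where 17.0% and 18.7% of all genes tested were. Snord118 had a log2 ratio of 1.89 in the liver comparison with a limma adjusted p of 0.0826.

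A list of genes linked to processing of the ribosomal precursor had 5 rows above 0 of 6, beside 40.6% of all named rows. These were Snord118, Snord14c, Snord14e, Snord22 and Snora74a (U19), with only Snord14d at 0. Snord118 and Snord22 had 135 and 126 bases, beside a median of 76 for Snord rows at 0. Snora74a had 196 bases, beside a median of 132 for Snora rows at 0. Shares were not compared at equal length, and the list was chosen with earlier results of these data known. Snora74a, a box H/ACA gene not named above for cleavage, rested on 1 read in each of 2 libraries. Of 5 U3 rows, whose symbols begin with Rnu3 and which are no members by the naming rule, only Rnu3a was above 0, at 5.20 FPKM in liver nuclear replicate 2. No row carried a Snord symbol of the Snrpn or the Dlk1-Meg3 cluster; rows with other symbols were not checked by position. All 64 named rows lie on the plus strand in GENCODE M21, which holds 69 genes of these names on the plus and 81 on the minus strand; the genes on the minus strand were not analysed here. The short snoRNA, scaRNA, miRNA and snRNA rows showed the same split, with 2353 on the plus and 6 on the minus strand, while the protein-coding rows had 8951 and 8802.

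For 24 of the 26 genes a longer gene lies around the snoRNA on the same strand, and 20 such hosts hold them. Snhg12 holds Snora44, Snora61 and Snora16a, Rack1 (listed as Gnb2l1 in the table) holds Snord96a and Snord95, and Hspa8 holds Snord14c and Snord14e. Within introns of every annotated host transcript lay 6 snoRNAs, while 18 were covered by an exon of at least 1 host transcript. None of these covering transcripts was protein coding; for 15 snoRNAs they included transcripts annotated as retained introns, and for 3, all in Snhg12, they were long intergenic noncoding ones. Whether a read came from a snoRNA or from a host transcript that keeps the intron was not tested, because the table gives 1 value per gene and no read positions.

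The genes that hold the snoRNAs could be tested on their own levels. In MIN6, 16 of the 17 hosts in the table were tested: on the authors' scaling, 1 was higher in nuclear and 7 in cytoplasmic libraries, beside 11.8% and 46.1% of all genes, with a median log2 ratio of −1.08 beside −0.76. Median centring gave 3 and 5, and rescaling each library to 1 sum also gave 3 and 5. In liver, limma called 0 higher in nuclear (also 0 at an unadjusted p under 0.05) and 11 in cytoplasmic libraries, beside 2.93% and 50.2% of all genes, with a median of −2.80 beside −1.64. Median centring gave 1 and 6, and rescaling gave 5 and 6. Over all genes the same changes of scaling turned 303 nuclear and 5197 cytoplasmic liver calls into 1239 and 1149 by median centring and 1513 and 534 by rescaling, so the split depends on the scaling.

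Rpl10, the ribosomal protein gene that holds Snora70, was at 5.29 and 3.45 FPKM in MIN6 nuclei and at 63.3 and 71.6 FPKM in MIN6 cytoplasm (log2 ratio −3.69 ± 0.28, limma adjusted p 0.00144). In liver it was at 6.01 and 3.37 FPKM in nuclear and at 462 and 353 in cytoplasmic libraries, a log2 ratio of −6.19 that stayed at −4.16 with median centring and at −3.54 with rescaling. Hspa8 was at 10.0 and 3.00 FPKM in MIN6 nuclear and at 85.1 and 85.8 in MIN6 cytoplasmic libraries (log2 ratio −3.70). Its snoRNA Snord14e was listed at 0 in those cytoplasmic libraries. A single read of Snord14e would have been 147 and 154 FPKM there, above the level of Hspa8, so the 0 sets no contrast with the host. Snhg12, a noncoding gene whose known role is to carry snoRNAs, was at 3.58 and 3.42 FPKM in MIN6 nuclear libraries and at 0.666 and 0 in cytoplasmic ones. It was the 1 host called higher in MIN6 nuclear libraries (log2 ratio 1.80 ± 0.32, limma adjusted p 0.00720), and in liver its log2 ratio of 0.69 was not called on the authors' scaling and was called after median centring (2.73, limma adjusted p 0.0447).

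**Figure D4:**
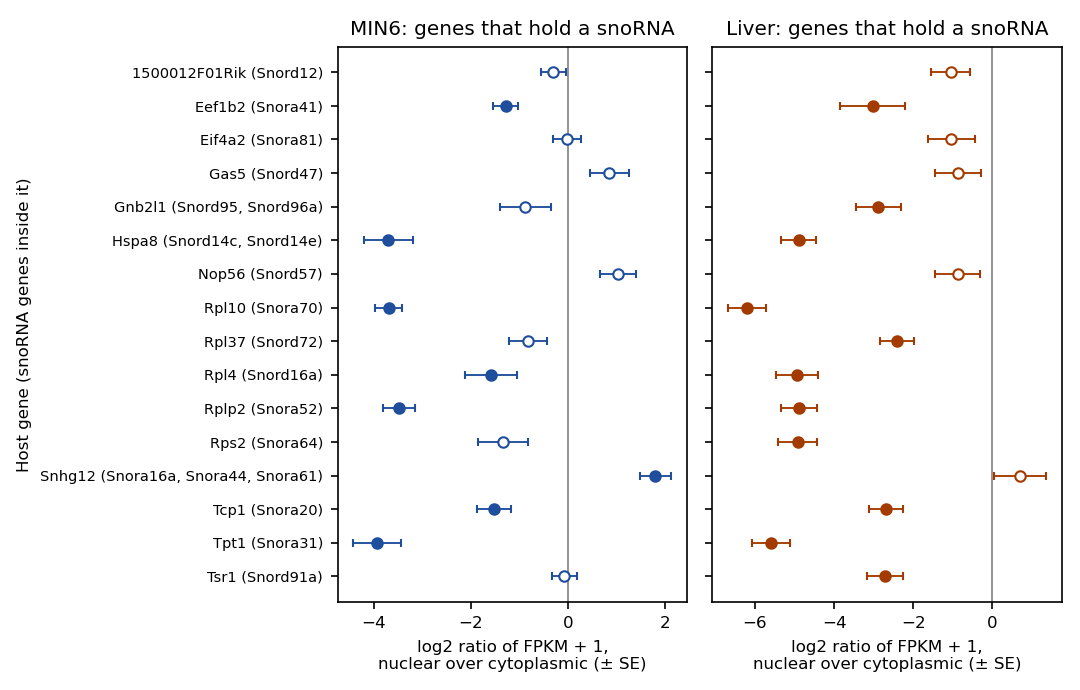
Nuclear over cytoplasmic log2 ratio of FPKM + 1 (± SE from limma) of the host genes, with the snoRNA genes inside each in brackets, in MIN6 (left) and liver (right), on the authors' scaling; filled points had an adjusted p under 0.05. In MIN6, Snhg12 is the 1 filled point right of 0 and 7 lie left of it; in liver all 11 filled points lie left of 0.

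Genes for proteins that bind, assemble or trim snoRNAs were read from lists of core proteins, assembly factors, Cajal body proteins and nuclear exosome factors. In MIN6, 21 were tested, with a median log2 ratio of −0.36 beside −0.76 over all genes, and limma called 0 higher in nuclear (1 at an unadjusted p under 0.05) and 7 in cytoplasmic libraries on the authors' scaling, where 11.8% and 46.1% of all genes were, with 6 and 5 after median centring and 2 and 3 after rescaling. In liver, 29 were tested, with a median of −1.33 beside −1.64 and 2 higher in nuclear and 12 in cytoplasmic libraries, where 2.93% and 50.2% of all genes were, 6 and 1 after median centring and 9 and 1 after rescaling. The list medians changed sign with the scaling, as did the median over all genes in liver. After median centring they were 0.15 against −0.25 over all genes in MIN6 and 0.71 against 0.39 in liver. Median centring moves every log2 ratio of a comparison by the same amount, so it could not change the gap to all genes. Rescaling, which differs from such a shift only through the 1 added to each value, gave 0.21 against −0.35 and 1.16 against 0.54. These gaps are therefore no separate evidence.

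Nhp2l1 (Snu13), which binds box C/D RNAs first, kept its direction in both tissues under all 3 scalings. It was at 0.396 and 0.118 FPKM in MIN6 nuclear and 3.43 and 3.85 in MIN6 cytoplasmic libraries (log2 ratio −1.89, limma adjusted p 0.00347). In liver it was at 0.561 and 0.630 FPKM in nuclear and 23.6 and 19.2 in cytoplasmic libraries (log2 ratio −3.80, limma adjusted p 0.00374). Nop10 and Nhp2, box H/ACA core proteins, had MIN6 log2 ratios of −2.11 and −1.76, and Ruvbl1, an ATPase of snoRNP assembly, one of −1.59, all past the limma threshold; with rescaling the ratio of Nhp2 was −2.62 and its limma adjusted p 0.0571.

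In liver, Nhp2 (−3.70), Fbl, the methyltransferase fibrillarin (−3.40), and Nop58 (−3.39) were higher in cytoplasmic libraries on the authors' scaling, and all 3 lost the call with median centring (−1.67, −1.36 and −1.35) and with rescaling (−1.62, −0.63 and −1.27). Rrp9, which binds U3, was at 5.28 and 2.68 FPKM in liver nuclear libraries and at 0 in cytoplasmic ones (log2 ratio 2.27, limma adjusted p 0.0144). Coil, the Cajal body scaffold protein coilin, was at 2.79 and 1.37 FPKM in liver nuclear libraries and at 0 in cytoplasmic ones (log2 ratio 1.58, limma adjusted p 0.0364). In the liver cytoplasmic libraries 3 reads, the limit that a count of 0 allows, would have been 4.72 and 3.45 FPKM for Rrp9 and 2.28 and 1.66 FPKM for Coil, above the nuclear replicate 2 value of each, so no fold bound could be given.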

How the data were processed

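The authors' deposited values are FPKM per gene and library; TopHat, Cuffdiff and build mm10 are named in the submitters' processing notes, while the sources used here do not state versions, annotation or scaling. Members, lists and tests were chosen with earlier results of these data known. Each comparison was fitted with limma 3.58.1 (R 4.3.3) on log2(FPKM + 1) over every gene whose mean FPKM reached 1. Tests were two-sided and Benjamini-Hochberg adjusted, and genes were called at an adjusted p under 0.05. The MIN6 fit was also tried on simulated data with normal noise on the log2 scale. Values of a few reads against 0 were not simulated, so that trial does not cover the snoRNA genes. Adding 1 understates the change of low values. Estimated reads are FPKM times effective length over the value of 1 read, with fragments of mean 200 and SD 80 bases, an assumption, and a shortest fragment of 59 bases, the setting from 20 to 61 that gave the most whole values. The depth of a library used the longest GENCODE M21 transcript of each gene. GENCODE M21 matched 25522 of 26520 rows by identifier and gave positions, hosts and sequences. Named with values were the 10 members highest by mean FPKM in each group, called members, members above 0 in fixed families, and, of the protein lists, the 4 called genes with the largest ratio per direction and tissue; naming reached all 26 members. Replicate numbers did not pair libraries by the labels.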

Additional observations from a re-analysis of the deposited data

Results flagged for a closer look

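For 6 of the 26 snoRNA genes the nuclear to cytoplasmic log2 ratio differed between liver and MIN6 by the interaction term in limma. The ratio in liver minus that in MIN6 was 13.27 for Snord104, 6.99 for Snord118, 6.41 for Snora26, 5.76 for Snora44 and 4.61 for Snora64, and −7.10 for Snord72. All 6 were listed at 0 in the 4 cytoplasmic libraries, so the values carry nothing beyond the nuclear libraries, where they rest on 2 to 9 reads in the tissue of the call. Among the protein genes, the same difference was −3.99 for Nop58, −3.36 for Exosc10, −2.58 for Pih1d1, −1.96 for Fbl, −1.91 for Nhp2l1, −1.75 for Dbr1 and −1.60 for Naf1, and 2.32 for Rrp9, on the authors' scaling, where the median over all genes tested was −1.28. With median centring 6 of the 7 negative ones lost the call, Nop58 (−2.49) being the exception. With rescaling all 7 lost it, and the sign turned for Naf1 (1.84), Nhp2l1 (1.04), Dbr1 (0.35) and Fbl (0.14). Rrp9 kept its call under both (3.82 and 4.13). It was listed at 0 in both liver cytoplasmic libraries, where 3 reads would have been 4.72 and 3.45 FPKM, so no fold bound could be given.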

How the results depend on the processing

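Members called in the fraction comparisons were at 0 in the cytoplasm, so their direction could not change. The count of members called higher in nuclear libraries was 3 in MIN6 and became 6 with median centring (all genes from 11.8% to 22.4%). With estimated reads per 1000000, 0 members were left to test there. In liver the nuclear count of 7 was 1 of 2 tested with estimated reads per 1000000 (all genes from 2.93% to 17.0%). Between nuclear libraries the counts were 5 higher in liver and 1 higher in MIN6. With estimated reads per 1000000 they became 1 and 0 of 4 tested (all genes 18.7% and 14.3%). With the replicate block they became 13 and 8 (all genes 61.96% and 6.88%). Median centring gave 7 higher in MIN6 (all genes 14.0%). For the interaction, 0 members were left to test with estimated reads per 1000000. Counts from fits with a replicate left out moved up as well as down and are not given in this section. Such fits assume that the lone replicate varies like the other groups. Within a tissue, deviations of equally numbered nuclear and cytoplasmic libraries correlated at 0.035 in MIN6 and 0.050 in liver. Equally numbered nuclear libraries of liver and MIN6 were not compared in this way. Apart from the counts between nuclear libraries, the block changed no count beyond 1.5 times. Snora64 lost its interaction call in 11 of 14 alternatives, and Snord14e its MIN6 call in a fit of all 8 libraries (limma adjusted p 0.0607). Reads per library limit every statement on a single gene.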
